A study of Macaca mulatta with 16 samples.

Results

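In fetal lung RNA of rhesus macaques, 10 genes whose products restrain inflammatory signalling were followed after intraamniotic exposure to bacterial lipopolysaccharide (LPS). They were chosen by symbol for what their products are known to do, with earlier results of these data known. The 10 genes all have a row among the 22515 genes of the table. They are TNFAIP3, TNIP1 and TNIP3, which act together on ubiquitin chains, ZC3H12A, which destroys cytokine messages, SOCS1, IL10 and IL10RA in cytokine signalling, IRAK3 on the Toll-like receptor pathway, CD274 on the T cell pathway, and TNFAIP6 in the matrix. All 10 passed the filter on low counts, and 19199 genes were tested in all.

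LPS is sensed by TLR4, which recruits the adaptor MYD88 and the IRAK kinases and activates NF-kappaB and the MAP kinases. The same transcription factors switch on the genes of their own inhibitors, so that ubiquitin editors, decay factors for cytokine messages, receptor antagonists and anti-inflammatory cytokines follow the first wave of cytokines. Exposure to LPS in the amniotic fluid is used as a model of chorioamnionitis, the inflammation of the fetal membranes, and amniotic fluid can reach the lung with fetal breathing.

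The samples were lung tissue of 16 fetuses with 1 library each, so the replicates are separate animals. The paper states that the left lung was frozen for sequencing. The preterm controls (4 fetuses, delivered at 131 to 135 days of gestation) and the term controls (2 fetuses, 156 and 157 days) had no intervention. The LPS 16h group (4 fetuses, delivered at 130 or 131 days) and the LPS 5d group (3 fetuses, 131 to 134 days) received 1 mg of LPS by intraamniotic injection and were delivered after 16 hours or 5 days. In the LPS + Beta-Ac 5d group (3 fetuses, 131 or 132 days) the same LPS was given and the dam also received 0.125 mg/kg of betamethasone-acetate (Beta-Ac) as an intramuscular injection. Fetuses given Beta-Ac alone were not analysed here, so LPS with and without Beta-Ac can be compared but not the steroid by itself.

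Library totals were 30596371 to 48052891 counts in LPS 16h, above the 20169363 to 28348816 counts of the other libraries. Levels are given as counts-per-million (CPM), scaled between libraries. The lung markers NKX2-1 and SFTPC were present in every library, at group means of 66.5 to 153 CPM and 2942 to 7147 CPM. The summed level of 14 neutrophil markers was 25.01 to 56.3 CPM in preterm controls, 1833 to 2433 CPM in LPS 16h, 113 to 160 CPM in LPS 5d, 300 to 542 CPM in LPS + Beta-Ac 5d and 154 to 225 CPM in term controls. That of 15 leukocyte and macrophage markers was 277 to 364 CPM, 1362 to 1595 CPM, 423 to 487 CPM, 678 to 1231 CPM and 427 to 731 CPM in the same order, with MARCO at 0 in every preterm control. Both sums were thus above preterm controls in every other group, untreated term controls included. The sum of 12 lymphocyte markers was 48.05 to 78.81 CPM in preterm controls and 85.2 to 98.85 CPM in LPS 16h. In whole tissue, more cells of a type and more RNA per cell cannot be told apart.

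A gene is called higher or lower where the limma fit gave a Benjamini-Hochberg adjusted p below 0.05 over all genes tested and at least a 2-fold change. At 16 hours all 10 brakes were called higher than in preterm controls, where 8.30% of all genes were called higher and 6.07% lower. At 5 days, 2 of the 10 were called higher after LPS (2.60% of all genes higher, 2.23% lower) and 6 of the 10 after LPS + Beta-Ac (4.05% higher, 2.44% lower). In term controls 1 of the 10 was called higher (1.11% higher, 0.953% lower). The counts away from 16 hours rested on few fetuses. That for LPS + Beta-Ac was 3 without fetus 248, that for LPS was 1 without fetus 239 or 240, and that for term was 0 without fetus 092, 101, 113 or 200. The median log2 fold change of the 10 brakes was 3.28, 0.59, 1.18 and 0.44 in these comparisons, beside -0.09, 0.00, -0.01 and -0.01 for all genes. Because the genes were chosen with earlier results of these data known, the shares of all genes give scale only. These comparisons all use the same preterm controls. The lowest value of any brake in them was -0.19, for IRAK3 in LPS 5d.

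**Figure D1:**
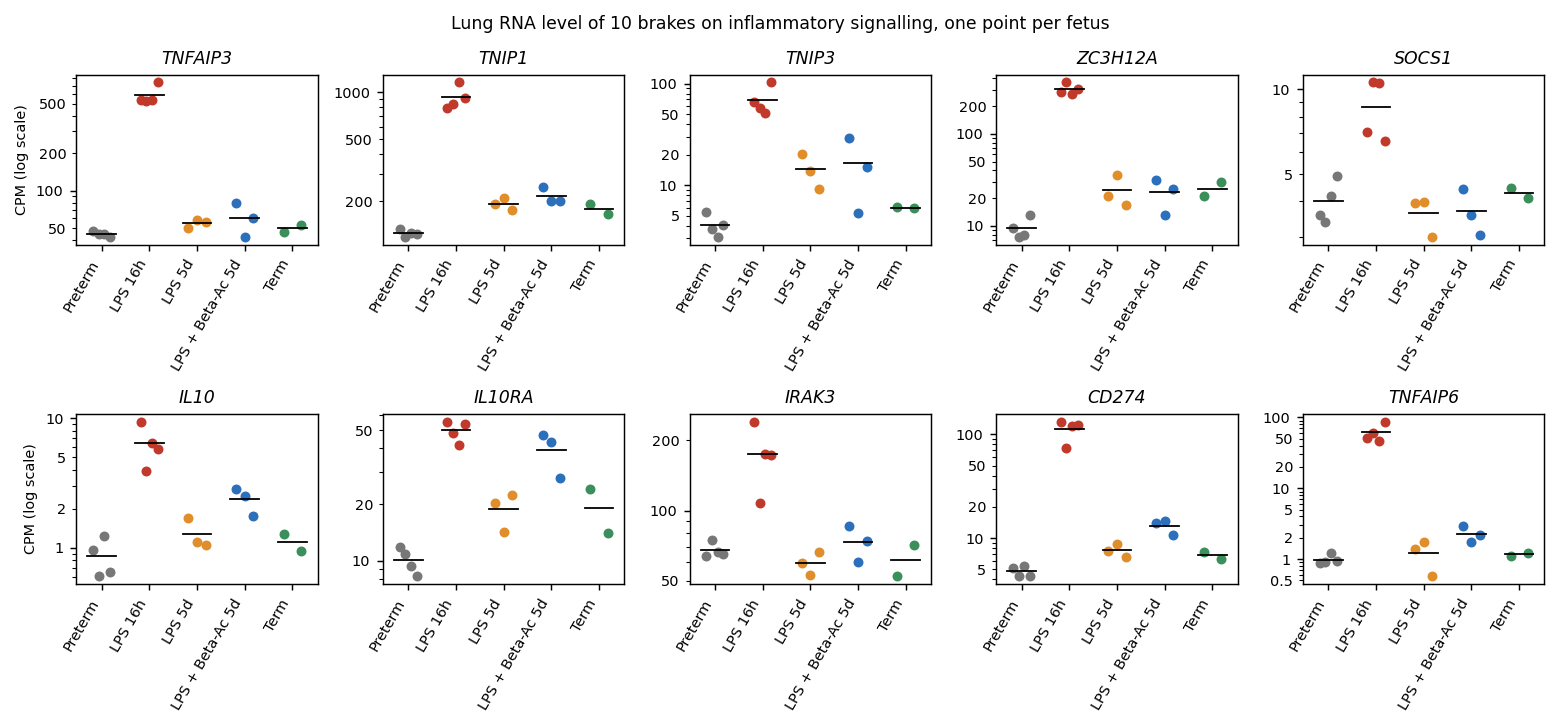
Level of each of the 10 genes in every fetus, in CPM on a log axis that differs between panels, with a black bar at the group mean. The 4 LPS 16h fetuses lie above every other fetus for 9 of the genes, and for IL10RA they overlap the LPS + Beta-Ac 5d group, which reaches 47.2 CPM.

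TNFAIP3, which encodes A20, removes and rebuilds ubiquitin chains on the kinase complexes upstream of NF-kappaB. It stood at 47.2, 44.6, 45.1 and 42.4 CPM in the preterm controls and at 541, 528, 534 and 745 CPM in LPS 16h. At 5 days it was 50.03, 57.9 and 56.0 CPM after LPS and 79.2, 42.5 and 61.0 CPM after LPS + Beta-Ac, and in term controls 46.4 and 53.3 CPM. The 16-hour fetuses were far above the rest, and the other 4 groups lay close together. The log2 fold change at 16 hours was 3.70 ± 0.16 (SE), or 13.0-fold, with an adjusted p of 3.83e-10 in the limma fit. At 5 days it was 0.28 ± 0.17 after LPS (adjusted p = 0.31) and 0.40 ± 0.17 after LPS + Beta-Ac (adjusted p = 0.134), neither past the limit. In order of mean level the groups ran LPS 16h, LPS + Beta-Ac 5d, LPS 5d, term and preterm, and only the step below LPS 16h was free of overlap.

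TNIP1 is the ABIN protein that carries A20 to its ubiquitinated targets. Its levels were 118 to 133 CPM in preterm controls, 786, 844, 1156 and 916 CPM in LPS 16h, 191, 209 and 175 CPM in LPS 5d, 246, 202 and 199 CPM in LPS + Beta-Ac 5d, and 191 and 167 CPM in term controls. Every treated or term fetus was above every preterm control. The change at 16 hours was 2.87 ± 0.12 (7.33-fold, adjusted p = 2.81e-10). At 5 days it passed the adjusted p in both LPS groups without reaching 2-fold, at 0.61 ± 0.13 (adjusted p = 0.00514) and 0.78 ± 0.13 (adjusted p = 0.000777).

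TNIP3, a further ABIN protein that is itself induced by LPS in leukocytes, was still called at 5 days. It measured 3.09 to 5.40 CPM in preterm controls and 66.7, 57.6, 51.4 and 103 CPM in LPS 16h. At 5 days it was 20.2, 14.0 and 9.25 CPM after LPS, still above all preterm controls, and 29.4, 5.32 and 14.99 CPM after LPS + Beta-Ac, where fetus 249 fell within the preterm range. The log2 fold changes were 4.05 ± 0.41 at 16 hours (adjusted p = 2.75e-06), 1.77 ± 0.44 for LPS 5d (adjusted p = 0.0158) and 1.72 ± 0.44 for LPS + Beta-Ac 5d (adjusted p = 0.0149), all called. Its residual spread within groups, an SD of 0.65 on the log2 scale, was the widest of the 10 genes. Without fetus 239 or 240 the LPS 5d call was lost (adjusted p = 0.0783 and 0.0571), and without fetus 248 or 255 that for LPS + Beta-Ac 5d (adjusted p = 0.0801 and 0.0517).

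Of 14 other genes of ubiquitin editing around A20, 6 were called higher at 16 hours and none lower, with a median log2 fold change of 0.83. BIRC3, a ubiquitin ligase of the TNF receptor complex, rose from 14.6 ± 1.3 CPM (SD, n = 4) to 396 ± 46 CPM (SD, n = 4), a log2 fold change of 4.75. TNFAIP8L2, a restraint on Toll-like and T cell receptors, rose by 1.83 on the log2 scale, and the deubiquitinase CYLD by 1.30. TNIP2, the remaining ABIN protein, rose by 1.46. TAX1BP1, ITCH and RNF11, which bind A20, were at 0.38, 0.38 and -0.72, short of a 2-fold change in each case. At 5 days BIRC3 was called higher after LPS (1.67) and after LPS + Beta-Ac (1.55), and also in term controls (1.435). TNFAIP8L2 was called after LPS + Beta-Ac (2.00). RNF11 was called lower in all 3 of these groups, at 67.7 ± 6.1 CPM (SD, n = 3) after LPS, 64.3 ± 5.3 CPM (SD, n = 3) after LPS + Beta-Ac and 80.7 ± 15.4 CPM (SD, n = 2) at term against 168 ± 40 CPM (SD, n = 4) in preterm controls.

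The IkB proteins, which hold NF-kappaB in the cytoplasm or tune it in the nucleus, changed as a block at 16 hours. The 7 genes tested include NFKB1 and NFKB2, the genes of NF-kappaB subunits whose precursors act as IkB proteins. All 7 of the 7 were called higher, with a median log2 fold change of 2.69. NFKBIA, the classical IkB alpha, went from 96.4 ± 8.6 CPM (SD, n = 4) to 1313 ± 262 CPM (SD, n = 4), a change of 3.75. BCL3, a nuclear member of the family, went from 18.9 ± 2.9 to 200.3 ± 54.2 CPM (SD, n = 4 each), a change of 3.37. At 5 days NFKBIA alone among the 7 was called after LPS, at 1.10 (adjusted p = 0.000562), and it was also called in term controls, at 1.05 (adjusted p = 0.00715). After LPS + Beta-Ac it reached 0.98 (adjusted p = 0.000707), just under 2-fold, and the 7 ranged from 0.28 to 0.98, with 4 past the adjusted p.

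ZC3H12A encodes Regnase-1, an endonuclease that cuts stem loops in the messages of IL6 and other cytokines. Preterm controls had 9.54, 7.53, 7.98 and 13.1 CPM, and the LPS 16h fetuses 282, 363, 269 and 304 CPM. After 5 days the levels were 21.3, 35.8 and 16.8 CPM with LPS and 31.9, 13.0 and 25.2 CPM with LPS + Beta-Ac, and term controls had 21.1 and 29.7 CPM. These 3 last groups overlapped one another and sat above preterm controls, apart from fetus 249, which was just below the highest of them. The change was 5.01 ± 0.28 at 16 hours (32.3-fold, adjusted p = 4.79e-09), 1.32 ± 0.30 for LPS 5d (adjusted p = 0.00906), 1.22 ± 0.30 for LPS + Beta-Ac 5d (adjusted p = 0.0113) and 1.42 ± 0.34 for term controls (adjusted p = 0.0341). ZC3H12A was the only brake called in term controls, and that call rested on few fetuses. It was lost without any of the preterm controls 092, 101 or 113 or either term control, where adjusted p ran from 0.0714 to 0.199. The LPS 5d call was lost without fetus 240 (adjusted p = 0.0579) and the LPS + Beta-Ac 5d call without fetus 248 (0.95, adjusted p = 0.0697).

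Among 9 other genes of cytokine message decay, 3 were called higher at 16 hours. ZFP36, tristetraprolin, which binds the AU-rich elements of TNF and other messages, rose from 66.6 ± 36.0 to 883 ± 394 CPM (SD, n = 4 each), a change of 3.82. RC3H2, a roquin that shares targets with Regnase-1, was called at 1.05, where the groups overlapped. At 5 days RC3H2 (1.33) and ZC3H12C (1.32), a relative of Regnase-1, were called after LPS, and 3 genes after LPS + Beta-Ac, among them RC3H1, the other roquin, at 1.41.

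SOCS1 binds JAK kinases and blocks signalling by interferon and other cytokine receptors. It had the smallest rise of the 10 genes. Levels were 3.57, 3.37, 4.19 and 4.91 CPM in preterm controls, 7.07, 10.6, 10.5 and 6.54 CPM in LPS 16h, 3.95, 3.99 and 2.99 CPM in LPS 5d, 4.44, 3.58 and 3.04 CPM in LPS + Beta-Ac 5d and 4.45 and 4.11 CPM in term controls. Only LPS 16h stood apart, without overlap, and the 5-day groups overlapped the preterm range. The 16-hour change was 1.08 ± 0.20 (2.12-fold, adjusted p = 0.000626), and it dropped under 2-fold without fetus 035 (0.98, adjusted p = 0.00305) and with libraries scaled by their totals alone (0.88, adjusted p = 0.00174). At 5 days the changes were -0.13 ± 0.22 and -0.12 ± 0.22, with 95% intervals of -0.60 to 0.33 after LPS and -0.58 to 0.34 after LPS + Beta-Ac.

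Within the other SOCS proteins and the phosphatases of cytokine receptors, 5 of 14 were called higher at 16 hours and the median was 0.05. SOCS3, which limits signalling by the IL-6 and G-CSF receptors, rose by 4.501, from 49.3 ± 15.6 to 1090.0 ± 215.5 CPM (SD, n = 4 each), and CISH, the first known member of the family, rose by 2.66. The phosphatases PTPN2, which acts on JAK kinases and STATs, and PTPN6, the leukocyte enzyme SHP-1, rose by 1.79 and 1.36. SOCS5, SOCS6 and SOCS7 were at -0.02, -0.12 and 0.05 with adjusted p values of 0.941, 0.566 and 0.868. After 5 days SOCS3 was called after LPS (1.79, adjusted p = 0.00929), as it was in term controls (2.16, adjusted p = 0.021), and PTPN6 after LPS + Beta-Ac (1.35, adjusted p = 6.3e-05).

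IL10, the main anti-inflammatory cytokine of leukocytes, was scarce. It was at 0.958, 0.601, 1.24 and 0.655 CPM in preterm controls, which is 13 to 35 counts a library, and at 9.45, 3.95, 6.41 and 5.79 CPM in LPS 16h. The levels at 5 days were 1.71, 1.11 and 1.04 CPM after LPS and 2.82, 2.50 and 1.77 CPM after LPS + Beta-Ac. The LPS + Beta-Ac fetuses lay between LPS 16h and all the others, without overlap with either, while LPS 5d overlapped preterm controls. IL10 rose by 2.78 ± 0.29 at 16 hours (6.86-fold, adjusted p = 2.93e-06) and by 1.41 ± 0.32 with LPS + Beta-Ac (2.66-fold, adjusted p = 0.00625), and the LPS 5d change of 0.56 ± 0.32 missed the limit (adjusted p = 0.271).

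IL10RA, the ligand-binding chain of the IL-10 receptor, is carried mainly by blood-derived cells. The preterm controls measured 11.9, 10.8, 9.40 and 8.22 CPM and the LPS 16h fetuses 55.6, 48.02, 41.8 and 54.2 CPM. It was 20.2, 14.2 and 22.4 CPM in LPS 5d, 47.2, 43.0 and 27.9 CPM in LPS + Beta-Ac 5d, and 24.3 and 14.1 CPM in term controls. Each of these groups was above preterm controls, and LPS + Beta-Ac reached into the LPS 16h range. The changes were 2.30 ± 0.21 at 16 hours (4.94-fold, adjusted p = 6.01e-07) and 1.94 ± 0.23 after LPS + Beta-Ac (3.82-fold, adjusted p = 6.14e-05). After LPS alone the change of 0.89 ± 0.23 passed the adjusted p (0.0159) but not 2-fold, and without fetus 240 it passed both (1.09, adjusted p = 0.0155).

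Of 9 genes listed for the pathway of the IL-10 receptor, 6 were called higher at 16 hours, with a median of 2.05. Whether IL-10 signalling took part in these changes was not tested. IL1RN, the IL-1 receptor antagonist, rose 35.9-fold, from 15.1 ± 2.6 to 538 ± 49 CPM (SD, n = 4 each), and HMOX1, heme oxygenase, rose 9.53-fold. STAT3, the factor that the receptor activates, rose by 2.01 and its corepressor SBNO2 by 2.62. The receptor's kinases differed: JAK1 was at 0.87 (adjusted p = 2.02e-05) and TYK2 at -0.18 (adjusted p = 0.216). With LPS + Beta-Ac, HMOX1 (2.07) and IL1RN (1.29) were called against preterm controls. After LPS alone HMOX1 was called (1.23) and IL1RN was at -0.03, with 14.95 ± 4.45 CPM (SD, n = 3). Term controls had both called, at 1.16 and 1.48.

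IRAK3, or IRAK-M, is a pseudokinase that prevents the active IRAK kinases from leaving the MYD88 complex. It was at 63.9, 74.7, 66.3 and 65.4 CPM in preterm controls and at 241, 108, 175 and 173 CPM in LPS 16h. In LPS 5d it was 59.4, 52.7 and 66.6 CPM, in LPS + Beta-Ac 5d 86.0, 60.3 and 74.2 CPM, and in term controls 52.2 and 71.2 CPM. The 16-hour fetuses were above all others and spread widely, and the remaining groups overlapped one another. The changes were 1.31 ± 0.19 at 16 hours (2.48-fold, adjusted p = 8.57e-05), -0.19 ± 0.21 for LPS 5d and 0.11 ± 0.21 for LPS + Beta-Ac 5d, the last 2 with adjusted p values of 0.622 and 0.783.

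Of the other IRAK family members and their adaptors, 2 of 5 genes were called higher at 16 hours. IRAK2, which prolongs the response, rose from 4.44 ± 0.61 to 51.6 ± 9.4 CPM (SD, n = 4 each), a change of 3.51, and MYD88 rose by 1.51. IRAK1 and IRAK4 were at 0.52 and 0.53, under 2-fold (adjusted p = 0.00263 and 0.00066), and TIRAP at -0.26. At 5 days the 5 genes ranged from -0.23 to 0.14 after LPS and from -0.17 to 0.50 after LPS + Beta-Ac, all short of 2-fold. Dampers of Toll-like and IL-1 receptors made a list of 13 genes, which shares IL1RN with the IL-10 pathway. Of these 13, 6 were called at 16 hours, IL1RN among them, with a median of 1.00. IL1R2, the decoy receptor for IL-1, led them with a 176-fold rise, from 0.400 ± 0.263 to 75.2 ± 9.5 CPM (SD, n = 4 each). It was still called at 5 days, at 2.01 ± 0.23 CPM (SD, n = 3) after LPS and 10.6 ± 6.5 CPM (SD, n = 3) after LPS + Beta-Ac. Untreated term controls were also called, at 2.52 ± 1.33 CPM (SD, n = 2).

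CD274 encodes PD-L1, the ligand that turns down T cells through PD-1. Preterm controls had 5.10, 4.34, 5.32 and 4.26 CPM, and LPS 16h fetuses 133, 74.0, 120.2 and 124 CPM. It was 7.55, 8.79 and 6.55 CPM in LPS 5d, 13.9, 14.7 and 10.6 CPM in LPS + Beta-Ac 5d and 7.28 and 6.30 CPM in term controls. The order was LPS 16h, LPS + Beta-Ac 5d, then LPS 5d and term controls, which overlapped, then preterm controls, with no overlap between the other neighbours. The changes were 4.52 ± 0.18 at 16 hours (22.9-fold, adjusted p = 2.81e-10), 1.43 ± 0.20 for LPS + Beta-Ac 5d (2.70-fold, adjusted p = 0.00021) and 0.67 ± 0.20 for LPS 5d, which passed the adjusted p (0.0321) without reaching 2-fold.

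Of 16 other checkpoint ligands and receptors, about as many were called at 5 days as at 16 hours. At 16 hours 9 were called higher, at 5 days 8 after LPS with 1 lower, and after LPS + Beta-Ac 9 with 1 lower, with medians of 1.13, 0.87 and 1.38. Of all genes, 8.30%, 2.60% and 4.05% were called higher in these comparisons. The receptors CTLA4, HAVCR2 and TIGIT were scarce in preterm controls, at means of 0.147, 0.204 and 0.308 CPM. The lower gene in both 5-day groups was CD200, a ligand that quiets myeloid cells, at -1.15 and -1.21. IDO1, which degrades tryptophan, went from 10.97 ± 2.09 CPM (SD, n = 4) in preterm controls to 263 ± 105 CPM (SD, n = 4) in LPS 16h, 26.5 ± 3.5 CPM (SD, n = 3) in LPS 5d and 98.7 ± 36.7 CPM (SD, n = 3) in LPS + Beta-Ac 5d. PDCD1LG2, which encodes PD-L2, rose by 3.40, 1.88 and 3.13 in these groups and by 1.89 in term controls. VTCN1, the inhibitory ligand B7-H4, was called after LPS 5d (2.43, adjusted p = 0.0181) and was at 0.59 at 16 hours (adjusted p = 0.453). PDCD1, the receptor of CD274, was at -0.30 at 16 hours (adjusted p = 0.281).

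TNFAIP6 encodes TSG-6, a secreted protein that binds hyaluronan and chemokines and slows the entry of neutrophils. It was nearly silent in preterm controls, at 0.871, 0.924, 1.21 and 0.946 CPM, or 20 to 34 counts a library. In LPS 16h it was 51.8, 61.2, 46.4 and 87.3 CPM, and at 5 days it was back at 1.38, 1.73 and 0.569 CPM after LPS and 2.97, 1.74 and 2.16 CPM after LPS + Beta-Ac. LPS 5d straddled the controls, while LPS + Beta-Ac lay just above all of them. The 16-hour change of 5.83 ± 0.29 (57.1-fold, adjusted p = 1.39e-09) was the largest of the 10 brakes and ranked 64 among all genes tested. At 5 days it was 0.18 ± 0.32 after LPS (adjusted p = 0.778) and 1.13 ± 0.32 after LPS + Beta-Ac (adjusted p = 0.0213). That last call was lost with voom weights (adjusted p = 0.0976) and without fetus 092, 248 or 255 (adjusted p = 0.0535, 0.109 and 0.0511).

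Of 12 tested partners of TSG-6 in the hyaluronan matrix, 7 were called higher at 16 hours. PTX3, a pentraxin that joins TSG-6 in crosslinking hyaluronan, went from 3.29 ± 0.24 to 547 ± 211 CPM (SD, n = 4 each), a 153-fold rise. HAS2, a hyaluronan synthase, rose 23.4-fold and the hyaluronan receptor CD44 rose 9.69-fold. At 5 days CD44 was called after LPS + Beta-Ac (1.14, adjusted p = 0.00281) and HMMR, a hyaluronan receptor of dividing cells, was called lower after LPS (-1.06, adjusted p = 0.00583). PTX3 was then at 4.18 CPM after LPS and 4.74 CPM after LPS + Beta-Ac on average. Of 9 MAP kinase phosphatases, which switch off the other arm of the pathway, 3 were called at 16 hours, DUSP5 (1.98) with the largest change. At 5 days they ranged from -1.20 to 1.29 after LPS, with DUSP10 (-1.004) among 2 called lower, and from -1.03 to 0.45 after LPS + Beta-Ac.

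**Figure D2:**
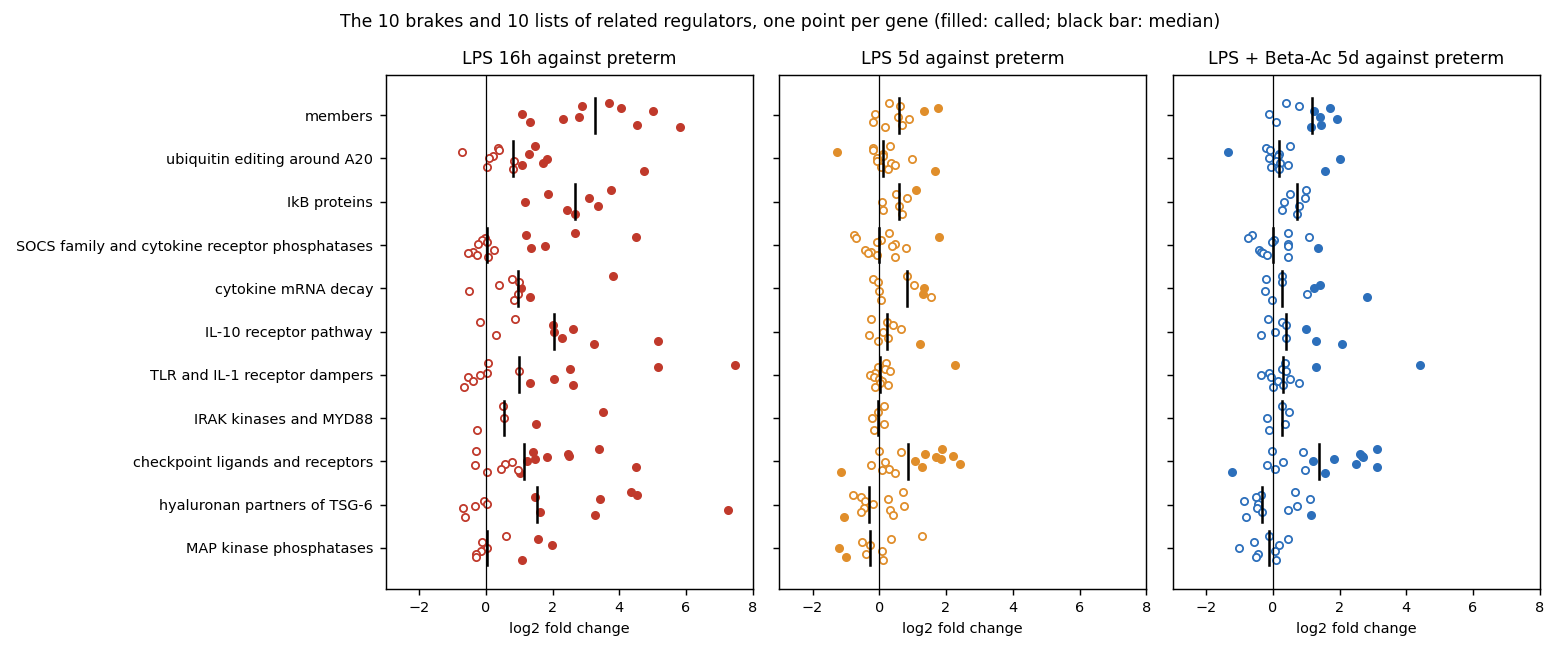
Log2 fold change of each tested gene against preterm controls, by list, with the 10 brakes in the top row, filled points for called genes and a black bar at the median. At 16 hours the brakes have a median of 3.28 and the IkB proteins 2.69, and at 5 days the checkpoint list has 8 genes called higher after LPS and 9 after LPS + Beta-Ac.

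The 16-hour and 5-day groups were also compared directly, with the same dose of LPS and different intervals. Gestational age at treatment was 129 or 130 days in LPS 16h and 126 to 129 days in LPS 5d, so it was not matched either. All 10 brakes were called higher at 16 hours than at 5 days (8.02% of all genes called higher, 6.61% lower), and all 10 were above every LPS 5d fetus, as were 21.0% of all genes. The differences on the log2 scale ran from 1.21 for SOCS1 and 1.41 for IL10RA to 3.85 for CD274 and 5.66 for TNFAIP6, with a median of 2.27. The 16-hour libraries were the deepest. With every library thinned to the smallest total, all 10 were still called in both comparisons with LPS 16h.

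The genes differed in how much of the 16-hour change was seen at 5 days. Taking each log2 fold change against the shared preterm controls, LPS 5d had 43.7% of the 16-hour value for TNIP3, 38.8% for IL10RA, 26.4% for ZC3H12A and 21.4% for TNIP1. It had 20.2% for IL10, 14.8% for CD274, 7.68% for TNFAIP3 and 3.004% for TNFAIP6. SOCS1 and IRAK3 were slightly below preterm controls. With LPS + Beta-Ac the shares were 84.0% for IL10RA, 50.8% for IL10, 42.4% for TNIP3, 31.8% for CD274 and 27.2% for TNIP1. They were 24.4% for ZC3H12A, 19.5% for TNFAIP6, 10.7% for TNFAIP3 and 8.27% for IRAK3, and SOCS1 was again below preterm controls. These shares are descriptions, since numerator and denominator use the same controls.

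**Figure D3:**
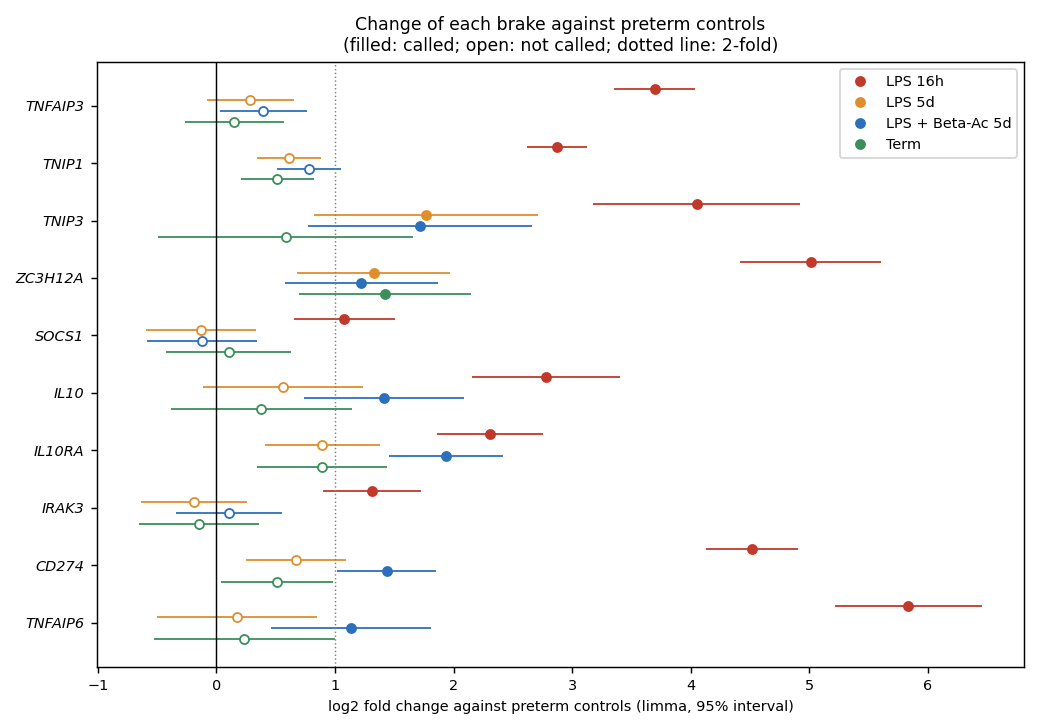
Log2 fold change of each of the 10 genes against preterm controls with its 95% interval from the limma fit, filled where called and open where not, with a dotted line at 2-fold. All 10 genes are called at 16 hours, and at 5 days IL10, IL10RA, CD274 and TNFAIP6 are called with LPS + Beta-Ac but not with LPS alone.

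Whether maternal Beta-Ac altered the brakes after LPS was addressed by comparing LPS + Beta-Ac 5d with LPS 5d. None of the 10 passed the limits in the limma fit, where 0.104% of all genes were called higher, and voom weights also gave 0. At an unadjusted p below 0.05 there were 4 of the 10, and 925 of the 19199 genes tested. These 4 were higher with Beta-Ac without overlap, as were 6.33% of all genes. IL10RA differed by 1.04 ± 0.24 (95% interval 0.52 to 1.56, adjusted p = 0.167), CD274 by 0.76 ± 0.21 (0.32 to 1.21, adjusted p = 0.3), TNFAIP6 by 0.96 ± 0.34 (0.24 to 1.68, adjusted p = 0.643) and IL10 by 0.85 ± 0.34 (0.13 to 1.57, adjusted p = 0.83). Without fetus 255, IL10RA was called (1.27, adjusted p = 0.0458). So a call in LPS + Beta-Ac against preterm controls and none in LPS does not show that the groups differ for these genes.

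For the A20 complex and the decay factor the intervals of that difference were centred near 0. They were -0.28 to 0.50 for TNFAIP3, -0.12 to 0.46 for TNIP1, -1.06 to 0.96 for TNIP3 and -0.79 to 0.59 for ZC3H12A. SOCS1 had an interval of -0.48 to 0.51 and IRAK3 of -0.18 to 0.77. The widths allow a change of up to about 2-fold for TNIP3 in either direction. In the other lists IDO1 (1.83 ± 0.31, adjusted p = 0.0364) and the macrophage scavenger receptor CD163 (1.97 ± 0.35, adjusted p = 0.0496) were called higher with Beta-Ac. Both calls depended on the fit. Of all genes, 20 were called higher in the main fit, 3 with voom weights and 0 when only the groups compared were fitted. The 8 glucocorticoid targets ranged from -0.70 to 0.51 in this comparison. FKBP5, a standard reporter of the glucocorticoid receptor, was at 23.9 ± 1.3 CPM (SD, n = 3) with Beta-Ac and 16.8 ± 1.5 CPM (SD, n = 3) without, a difference of 0.51 (adjusted p = 0.631). It was also called higher in LPS 16h, where no Beta-Ac was given, at a mean of 75.1 CPM against 16.8 CPM in preterm controls (2.15). In that comparison 4 of the 8 targets were called higher, beside 8.30% of all genes.

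The 3 fetuses of LPS + Beta-Ac 5d did not rank alike across the brakes. Fetus 248 was the highest and fetus 249 the lowest for TNFAIP3, TNIP3, ZC3H12A, IRAK3 and TNFAIP6. In the same order, fetuses 248, 255 and 249, IL1B was 38.1, 11.9 and 6.41 CPM and TNF 1.92, 1.00 and 0.579 CPM. IL6 did not share this order, at 1.13, 0.231 and 0.253 CPM in these fetuses, with fetus 255 the lowest. For IL10, IL10RA, CD274, TNIP1 and SOCS1, fetuses 248 and 249 were both above fetus 255. So they were for the leukocyte and macrophage markers, at 993 and 1231 CPM against 678 CPM. MARCO, a scavenger receptor of alveolar macrophages, was 11.9, 33.3 and 4.12 CPM in fetuses 248, 249 and 255. These are the values of 3 fetuses, with no test.

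**Figure D4:**
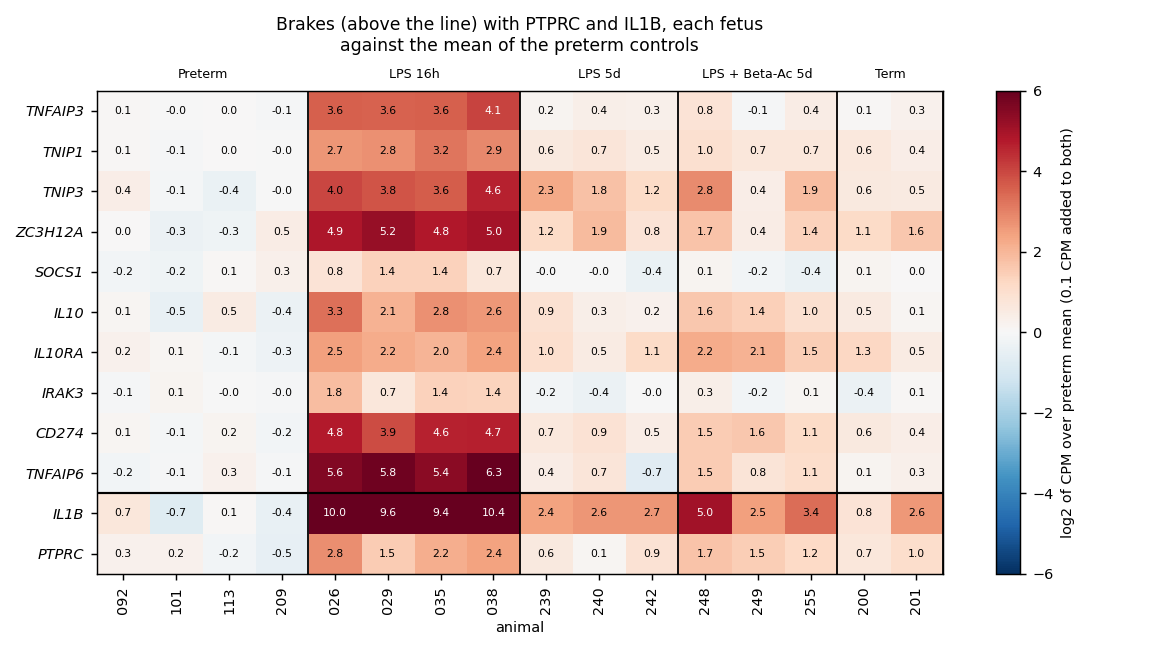
Log2 of the level in each fetus over the mean of the preterm controls, after adding 0.1 CPM to both, for the 10 genes and, under the line, for the cytokine IL1B and the leukocyte antigen PTPRC. The LPS 16h columns are the darkest, and of the LPS + Beta-Ac 5d fetuses, 248 and 249 are at 2.82 and 0.38 for TNIP3 but at 2.22 and 2.08 for IL10RA.

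The brakes were set beside PTPRC, the common leukocyte antigen CD45, to see which rose more than this leukocyte transcript. At 16 hours CD274 had 85.1 to 119 counts per 100 counts of PTPRC, above the 16.3 to 26.6 in preterm controls. TNFAIP6 had 33.2 to 95.7 against 3.20 to 6.03, TNFAIP3 346 to 826 against 167 to 263, TNIP3 42.7 to 90.1 against 14.1 to 25.2 and ZC3H12A 181 to 568 against 28.3 to 81.1, each without overlap. TNIP1, IL10 and IL10RA overlapped the controls, at 503 to 1319 against 442 to 766, 4.86 to 6.33 against 2.26 to 6.21 and 35.6 to 75.1 against 40.6 to 50.9. IRAK3 was lower per PTPRC, at 145 to 173 against 234 to 405, without overlap, and SOCS1 was at 4.53 to 16.6 against 12.7 to 30.4. In LPS + Beta-Ac 5d, CD274 and IL10, which were higher in CPM than in preterm controls, lay within the preterm range per PTPRC, at 18.6 to 23.6 and 3.48 to 4.03, and IL10RA lay above it, at 54.7 to 69.4. TNFAIP6 overlapped it, at 2.80 to 4.24. In the same group TNFAIP3 (68.5 to 120), TNIP1 (325.6 to 391.9), IRAK3 (97.3 to 146) and SOCS1 (5.78 to 5.98) were below the preterm range per PTPRC without overlap. Untreated term controls were also below that range for TNFAIP3 (115 to 128), IRAK3 (144 to 153) and SOCS1 (8.85 to 12.25), and overlapped it for TNIP1 (359 to 526). LPS 5d was below it for IRAK3 (160 to 219), overlapped it for TNFAIP3, TNIP1 and SOCS1, and was above it for IL10RA (53.8 to 59.1). PTPRC itself was 16.2 to 27.3 CPM in preterm controls, 64.0 to 156 CPM in LPS 16h, 24.1 to 41.7 CPM in LPS 5d and 50.9 to 74.3 CPM in LPS + Beta-Ac 5d. PTPRC is 1 marker, and the 14 neutrophil markers had a median log2 fold change of 4.77 at 16 hours. Of the brakes raised per PTPRC without overlap, TNFAIP3 (3.70), TNIP3 (4.05) and CD274 (4.52) were below that median. ZC3H12A (5.01) and TNFAIP6 (5.83) were above it. The part of leukocyte number in these changes was not tested.

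The inflammatory genes that the brakes restrain had a lower summed level at 5 days than at 16 hours, without overlap, and one above that of preterm controls. The sum over 11 cytokines and chemokines was 12.7 to 17.98 CPM in preterm controls, 3087 to 7099 CPM in LPS 16h, 55.1 to 65.8 CPM in LPS 5d, 112 to 183 CPM in LPS + Beta-Ac 5d and 43.9 to 51.0 CPM in term controls. At 16 hours 11 of the 11 were called higher, and at 5 days 6 after LPS and 8 after LPS + Beta-Ac. 10 of the 11 were called higher at 16 hours than at 5 days after LPS, with IL12B at 0.94 (adjusted p = 0.076). IL1B was 0.601 to 1.79 CPM in preterm controls, 782 to 1639 CPM in LPS 16h and 6.13 to 7.26 CPM in LPS 5d. Fetus 038, with the highest IL1B of LPS 16h at 1639 CPM and the highest IL6 at 252 CPM, was also the highest for TNFAIP3, TNIP3 and TNFAIP6. It was not the highest for the other 7.

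Term controls give the level in the untreated lung later in gestation. Besides ZC3H12A, 4 brakes were above all preterm controls without being called, at 0.51 for TNIP1 (adjusted p = 0.0616), 0.58 for TNIP3 (adjusted p = 0.588), 0.89 for IL10RA (adjusted p = 0.068) and 0.51 for CD274 (adjusted p = 0.225). These 5 of 10 stand beside 11.2% of all genes that did not overlap in that direction. For LPS 5d the brakes without overlap were 6 of 10 beside 13.6%, for LPS + Beta-Ac 5d 5 of 10 beside 14.7%, and for LPS 16h 10 of 10 beside 17.0%, each against preterm controls. The term group had 2 fetuses, which limits what the test can call.

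Over the 16 fetuses, the tested genes most like TNFAIP3 in log2 CPM were PTX3 (r = 0.995), the kinase gene MAP3K8 (r = 0.990) and NFKB1 (r = 0.988). Those most like IL10RA were the leukocyte genes CD53 (r = 0.982), VAV1 (r = 0.981) and LAT2 (r = 0.978). The fetuses share treatment groups, and the LPS 16h fetuses set much of the range, so these values describe likeness only.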

How the data were processed

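Lung RNA from 16 fetuses in 5 groups was analysed, with groups taken from the labels. The authors extracted RNA from frozen lung (a column kit in the paper, Trizol in the labels), sequenced poly(A)-selected libraries as 75 bp paired-end reads, assigned them with kallisto to Mmul_10 and used DESeq2. The authors deposited raw counts, whole numbers for every Ensembl gene and fetus, without normalization. For tool versions and the annotation release, the sources say nothing. The values were read and used as counts, but an automatic check of units could not parse the table's separator and column names, so the unit was recorded as other, and under that record limma was used in place of negative binomial count models.

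Counts were scaled by TMM (30% of log ratios and 5% of means trimmed), turned into log2 CPM with a prior count of 2 and fitted with limma 3.58.1 (R 4.3.3, trend and robust options) with 1 mean per group over the 16 fetuses. Genes with 0.371 CPM in 2 fetuses and 15 counts in all were tested. p values are two-sided, and ± after a fold change is the SE. No fold is given where a group averaged under 4 counts. The code was tested on simulated data. Replicates differed by more than counting noise (chi-square per degree of freedom of 32.5 or more).

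The 10 genes and 20 lists of 215 other genes, 204 with a row and 201 tested, were written from general knowledge with earlier results of these data known. Genes of a list named by rule are the up to 2 called per comparison with the largest change and no overlap, and others were named after their values were seen. Counts were lowest for IL10, TNFAIP6 and SOCS1, where counting error adds most to the spread between fetuses. Exon lengths and promoter sequences were not used here, so levels are not compared between genes.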

Additional observations from a re-analysis of the deposited data

Results flagged for a closer look

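TNFAIP3 in the LPS 16h fetus 038 stood apart from its group, at 745 CPM against 528 to 541 CPM in the other 3. The gap to the next fetus was above Dixon's 95% limit for 4 samples. Such a gap arises by chance in about 1 of 20 independent sets of 4 values. The 10 genes were looked at in preterm controls and in LPS 16h, which gave 20 sets, with this 1 set apart. The sets reuse the same fetuses, so they are not independent. Without fetus 038 the 16-hour change of TNFAIP3 was still called.

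The change after LPS differed between 16 hours and 5 days for all 10 genes, tested as the difference between the groups in the limma fit. On the log2 scale the 16-hour value exceeded that at 5 days by 3.41 for TNFAIP3, 2.26 for TNIP1, 2.28 for TNIP3, 3.69 for ZC3H12A, 1.21 for SOCS1, 2.22 for IL10, 1.41 for IL10RA, 1.496 for IRAK3, 3.85 for CD274 and 5.66 for TNFAIP6. The groups also differed in neutrophil markers (1833 to 2433 CPM against 113 to 160 CPM) and in library totals, and the part of the cell markers in the difference was not tested.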

How the results depend on the processing

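No paired analysis was possible because the groups share no animal number. The counts of brakes called were 9 or 10 at 16 hours under every alternative run. Against preterm controls, LPS 5d gave 2, with 1 to 2 when single fetuses were left out and 5 with no minimum fold, LPS + Beta-Ac 5d gave 6, with 3 at the lowest (without fetus 248), and term controls gave 1, with 0 to 1 without single fetuses and 0 when only the groups compared were fitted. LPS + Beta-Ac against LPS gave 0, and 0 to 1 without single fetuses. Changes that turned sign, each when 1 fetus was left out and none past the limit before or after, were in SOCS1 (-0.21 to 0.0017, the latter without 242) and TNFAIP6 (-0.13 without 240 to 0.62) for LPS 5d, SOCS1 (-0.26 to 0.0080, the latter without 255) and IRAK3 (-0.012 without 248, to 0.27) for LPS + Beta-Ac 5d and IRAK3 (-0.37 to 0.077, the latter without 200) for term, and for LPS + Beta-Ac against LPS in TNFAIP3 (-0.10 without 248, to 0.35), TNIP3 (-0.62 to 0.60, above 0 without 239 or 249), ZC3H12A (-0.37 to 0.27, above 0 without 240 or 249) and SOCS1 (-0.13 to 0.14, below 0 without 242 or 248). Their cause was not tested. Scaling by library totals alone moved the median of all genes from -0.09 to -0.29 at 16 hours and the calls from 1593 higher and 1165 lower to 1258 and 1936, and against LPS 5d from 1540 and 1270 to 1163 and 1899. Fitting only the groups compared called 52 and 64 genes for term in place of 214 and 183, and 0 for LPS + Beta-Ac against LPS in place of 20, where voom gave 3. Under the settings that left out no fetus, 536 values of single genes kept their direction and side of the limit and 4 lost a call. Where 1 term fetus was left, it was assumed to vary like the other groups. Groups of 2 to 4 fetuses, and 12 to 35 counts of IL10 or TNFAIP6 in some libraries, limit what can be called.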
